A study of Mus musculus with 12 samples.

Results

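Regulatory T cells that had lost Gpx4 were compared with wild-type regulatory T cells without stimulation, across all expressed genes. The comparison uses 6 of the 12 RNA-seq libraries of the series, chosen by their labels alone: 3 libraries of unstimulated wild-type cells and 3 of unstimulated Gpx4-deficient cells. Of 24502 mouse genes in the deposited count table, 13496 had enough counts in these 6 libraries to be tested. The other 6 libraries hold the same genotypes after 4 h of stimulation by anti-CD3 and anti-CD28 antibody coated on plates (5 µg/ml), and they enter only where the 2 states are compared. All cells were sorted Treg cells of mice aged 11 weeks. The controls are labelled WT with no word on whether they carried Cre. The Gpx4-deficient mice are labelled Foxp3CreGpx4fl/fl, in which Cre recombinase is made from the Foxp3 gene and the target gene is flanked by loxP sites. An effect of Cre or of the altered Foxp3 gene itself therefore cannot be told apart from that of the deletion. The sources used here do not name the exons that the loxP sites flank. The labels number the libraries of each genotype in a separate series, so genotype and any difference in library preparation cannot be told apart. No label says that the libraries of a group came from separate mice, and p-values then measure only the spread between libraries, which may be technical. No time in culture is given for the unstimulated cells.

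Regulatory T cells are CD4+ T cells that restrain other immune cells and are defined by the transcription factor Foxp3. Gpx4 is a selenium-containing enzyme that reduces lipid hydroperoxides in membranes with glutathione, and cells that lose it can die by ferroptosis, an iron-dependent death driven by lipid peroxidation. The Hsp70, Hsp90 and Hsp40 proteins are chaperones that refold damaged proteins; their inducible genes are switched on by the transcription factor HSF1 within minutes of heat or other damage to proteins. Fos and Jun are immediate early genes whose protein products pair to form the transcription factor AP-1. They are transcribed quickly and for a short time after T cell receptor signals, growth factors and many stresses, including the dissociation and sorting of tissue.

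Library totals ran from 24854994 to 28703618 counts. Levels below are CPM, counts scaled to library size after the libraries were set to each other by the trimmed mean of M-values (TMM). The Gpx4-deficient libraries were less alike than the wild-type ones: the common dispersion, edgeR's measure of variance between replicates beyond counting noise, was 0.532 in Gpx4-deficient against 0.234 in wild-type cells. On the first principal component, with 39.2% of the variance, Gpx4-deficient library 1 stood alone at 199.3, and on the second, with 23.9%, Gpx4-deficient library 2 stood alone at -153.5. Genes with no count in a library but a mean of at least 5 CPM over the others numbered 47 and 34 in these libraries. They numbered 3 in Gpx4-deficient library 3, and 13, 4 and 9 in the wild-type libraries. Counts of the gene lists were therefore also taken without libraries 1 and 2 of the Gpx4-deficient group, an alternative chosen after seeing the data, and are given where they bear on a list.

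Gpx4 transcripts were nearly lost. Gpx4 (chr10:80047166-80056439, plus strand, GRCm38) stood at 147.7, 174.4 and 143.6 CPM in the wild-type libraries and at 4.993, 7.399 and 12.47 CPM in the Gpx4-deficient ones. All 3 Gpx4-deficient libraries lay far below all wild-type libraries, and the mean fell from 155.2 ± 16.7 to 8.288 ± 3.82 CPM (SD, n = 3), 5.34% of the wild-type level. The log2 fold change was -4.23 (SE 0.35, adjusted p = 0.00964), from edgeR's quasi-likelihood test with Benjamini-Hochberg adjustment over all tested genes, as for every adjusted p of a gene below unless another tool is named. The call was lost without wild-type library 1, wild-type library 2 or Gpx4-deficient library 2, with the same direction. It was also lost with replicate number added to the fit as a block. In bulk RNA, a lower level from fewer cells carrying a transcript and one from less RNA per cell cannot be told apart. Of the 31-base words in the annotated Gpx4 transcripts, 38.7% also occur in the pseudogene Gpx4-ps2, which was listed at 6.609, 8.346 and 7.053 CPM in wild-type and 2.019, 0.8178 and 0.267 CPM in Gpx4-deficient cells, so reads could have been split between them. Gpx4-ps2 had a log2 fold change of -2.82 (adjusted p = 0.36).

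Transcripts that define regulatory T cells were present in all 6 libraries. Foxp3 (chrX:7573644-7595245, plus strand), whose locus drives the Cre, stood at 20.72, 24.17 and 27.14 CPM in wild-type and 35.41, 37.23 and 22.58 CPM in Gpx4-deficient libraries. The groups overlapped, and their log2 difference was 0.40 (SE 0.28, adjusted p = 0.69). Il2ra, the high-affinity interleukin-2 receptor chain, was at 541.8, 513.7 and 532.9 CPM in wild-type and 566.7, 496 and 520.4 CPM in Gpx4-deficient cells. Ctla4, an inhibitory receptor through which these cells act, ran from 312.5 to 353.7 CPM and from 310.7 to 336.4 CPM. Of 25 tested Treg identity genes none was called, 12 had positive and 13 negative log2 fold changes, and 6 had an unadjusted p under 0.05. DESeq2 called 1 of these 25 higher and 2 lower. The 4 members of lowest unadjusted p lay on both sides of 0. Nrp1 had a log2 fold change of 0.44 (adjusted p = 0.185) and Tnfrsf4 of -0.59 (adjusted p = 0.245). Tnfrsf18 had -0.54 (adjusted p = 0.364) and Tnfrsf9 -0.38 (adjusted p = 0.44). The groups overlapped for Tnfrsf9 and not for the others. Cd8a, which marks CD8 T cells, was at 1.833 CPM or less in every library.

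Of 13496 tested genes, 7 were called at an adjusted p under 0.05, or 0.0519%. Of these, 5 were higher in Gpx4-deficient cells (0.0370%) and 2 were lower (0.0148%). The 5 that rose were 3 chaperone genes, Hspa1a, Hspa1b and Dnajb1, and both core AP-1 genes, Fos and Jun. The 2 that fell were Gpx4 and the pseudogene Gm4366. All libraries of one group lay above all of the other for 1197 higher genes (8.87%) and 1400 lower genes (10.4%). Such genes are described below as separated, and these shares are the background for each list. The share separated in either direction rose with level, from 13.8% at 2 log2 CPM or less to 37.9% over 8 log2 CPM. The median log2 fold change over all tested genes was 0.0027, and 1389 genes had an unadjusted p under 0.05. The number of calls moved with the tool: limma-voom called 12 genes higher and 6 lower, and DESeq2 called 231 higher and 164 lower on the same libraries. With the count of tested genes restricted to those at 5 CPM or more in at least 3 libraries, edgeR called 17 higher and 13 lower.

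**Figure D1:**
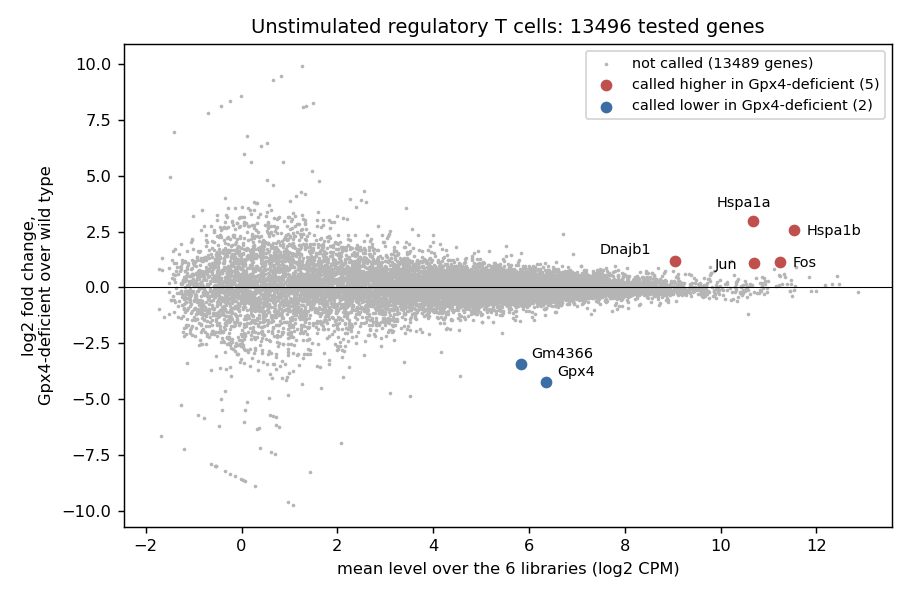
Each point is a tested gene, with its mean level (log2 CPM) on the x axis and its log2 fold change, Gpx4-deficient over wild type, on the y axis, in 3 libraries a group. The 7 called genes are named: Hspa1a, Hspa1b, Dnajb1, Fos and Jun lie above 0, and Gpx4 and Gm4366 lie below.

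The inducible Hsp70 pair rose most among the genes called higher. Their upstream sequences are printed because both genes, of largest fold among those called higher, lie next to each other, share nearly all of their promoter and carry the same chaperone-gene motif. The 250 bases before each annotated start come from RefSeq (GRCm38.p6), 5′ to 3′ on the gene's strand: chr17:34972157-34972406 for Hspa1a, chr17:34959239-34959488 for Hspa1b and chr4:95052223-95052472 for Jun, all on the minus strand. Capitals mark GAANNTTC, a minimal core of the element that HSF1 binds.
Hspa1a: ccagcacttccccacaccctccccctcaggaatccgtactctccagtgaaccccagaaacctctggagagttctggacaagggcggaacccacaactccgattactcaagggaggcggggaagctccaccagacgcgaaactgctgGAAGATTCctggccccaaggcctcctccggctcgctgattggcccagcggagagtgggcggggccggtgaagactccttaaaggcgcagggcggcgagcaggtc
Hspa1b: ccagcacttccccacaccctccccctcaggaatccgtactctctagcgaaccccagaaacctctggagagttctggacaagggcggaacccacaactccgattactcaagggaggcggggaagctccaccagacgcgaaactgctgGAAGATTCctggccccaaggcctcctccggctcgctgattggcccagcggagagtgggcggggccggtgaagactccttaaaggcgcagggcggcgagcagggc
Jun: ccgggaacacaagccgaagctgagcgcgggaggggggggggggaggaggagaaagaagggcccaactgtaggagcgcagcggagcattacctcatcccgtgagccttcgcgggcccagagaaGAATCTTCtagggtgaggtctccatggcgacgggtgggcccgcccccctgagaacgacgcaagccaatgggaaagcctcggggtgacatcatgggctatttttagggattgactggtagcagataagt
The Hspa1a and Hspa1b stretches are identical at 247 of 250 bases, and the capitals begin 104 bases before the start in both and 128 bases before it in Jun. Of 22 tested heat shock genes with a RefSeq window (300 bases, 250 before to 50 after the start, either strand), 10 hold the motif in at least 1 window, or 45.5%. Among the tested genes with a window, 672 of 9564 hold it, or 7.03%, and 7.86% of all windows in the table do. The windows of Dnajb1 and Fos hold none. A match is a description of the letters and not a measured binding site.

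Hspa1a (chr17:34969190-34972156) encodes inducible Hsp70, which binds unfolded stretches of proteins. It stood at 391.8, 341 and 379.7 CPM in wild-type and at 2689, 3527 and 2480 CPM in Gpx4-deficient libraries. The groups were far apart, and the mean rose 7.82-fold, from 370.8 ± 26.5 to 2899 ± 554.1 CPM (SD, n = 3), which is 2.97 on the log2 scale (SE 0.14, adjusted p = 0.00074). Hspa1b (chr17:34956436-34959238), its neighbour, encodes nearly the same protein. Its level was 754, 828.1 and 953.4 CPM in wild-type and 4551, 6104 and 4513 CPM in Gpx4-deficient cells. It rose 5.98-fold with no overlap between the groups, from 845.2 ± 100.8 to 5056 ± 907.6 CPM, or 2.58 on the log2 scale (SE 0.14, adjusted p = 0.00113). Of the 31-base words in Hspa1a transcripts, 63.8% also occur in Hspa1b, so the authors' counting could split reads between the 2 genes. Their sum, which such a split does not touch, went from 1146, 1169 and 1333 CPM to 7240, 9631 and 6994 CPM, a ratio of 6.54. Both calls held under all 14 alternatives of sample, scaling, filter and tool.

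Dnajb1 (chr8:83608193-83612653, plus strand) encodes an Hsp40 protein that hands unfolded clients to Hsp70. It was at 320.1, 307.2 and 340.7 CPM in wild-type and at 701.7, 801.6 and 710.1 CPM in Gpx4-deficient libraries. The 6 values form 2 tight groups, and the mean rose 2.29-fold from 322.7 ± 16.9 to 737.8 ± 55.4 CPM (SD, n = 3), or 1.19 on the log2 scale (SE 0.09, adjusted p = 0.00669). Without wild-type library 1 or wild-type library 2 the call was lost, as it was with replicate number as a block in the fit.

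The cytosolic chaperone list, which includes these 3 called genes, leaned to positive values. Of its 27 tested genes, 22 had positive log2 fold changes, 15 were separated upward against the 8.87% of all tested genes, and none was separated downward. The 22 and the 15 count the 3 called genes. They also count Cryab, which was at 0 in all wild-type libraries and passed the filter only through the Gpx4-deficient ones. The median was 0.41, beside 0.0027 for all tested genes. Its summed level, which includes the 3 called genes, was 8894, 9555 and 9188 CPM in wild-type and 18492, 22680 and 18285 CPM in Gpx4-deficient cells. The same 22 to 5 split of signs was found without Gpx4-deficient library 1 and without library 2. DESeq2 called 10 of the 27 higher and none lower.

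Members that missed the threshold are given by value. Hspa8, the constitutive Hsp70 of the cytosol, was at 2059, 2235 and 2020 CPM in wild-type and 3276, 4995 and 3777 CPM in Gpx4-deficient libraries, with a log2 fold change of 0.93 (adjusted p = 0.118). Hsp90ab1, a constitutive Hsp90, was at 2471, 2646 and 2461 against 3262, 3154 and 3127 CPM, a log2 fold change of 0.33 (adjusted p = 0.143). For both genes every Gpx4-deficient library lay above every wild-type library. The inducible Hsp90 gene Hsp90aa1 stood at 438, 515.1 and 502.9 against 830, 740.6 and 668.4 CPM (0.62, adjusted p = 0.145). Bag3, a co-chaperone that directs Hsp70 clients to autophagy, was at 23.56, 23.35 and 31.84 against 103.1, 68.81 and 46.91 CPM (1.47, adjusted p = 0.215). These groups do not overlap either, and Gpx4-deficient library 1 had the highest level of both genes. Hsph1, an exchange factor of Hsp70, had a log2 fold change of 0.87 (adjusted p = 0.185). The small chaperone gene Cryab was listed at 0 in all wild-type libraries and at 2.16, 0.8178 and 0.9916 CPM in Gpx4-deficient ones. Stip1, which links Hsp70 to Hsp90, and Hspa4, a further exchange factor, had log2 fold changes of -0.04 and -0.17 with overlapping groups.

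**Figure D2:**
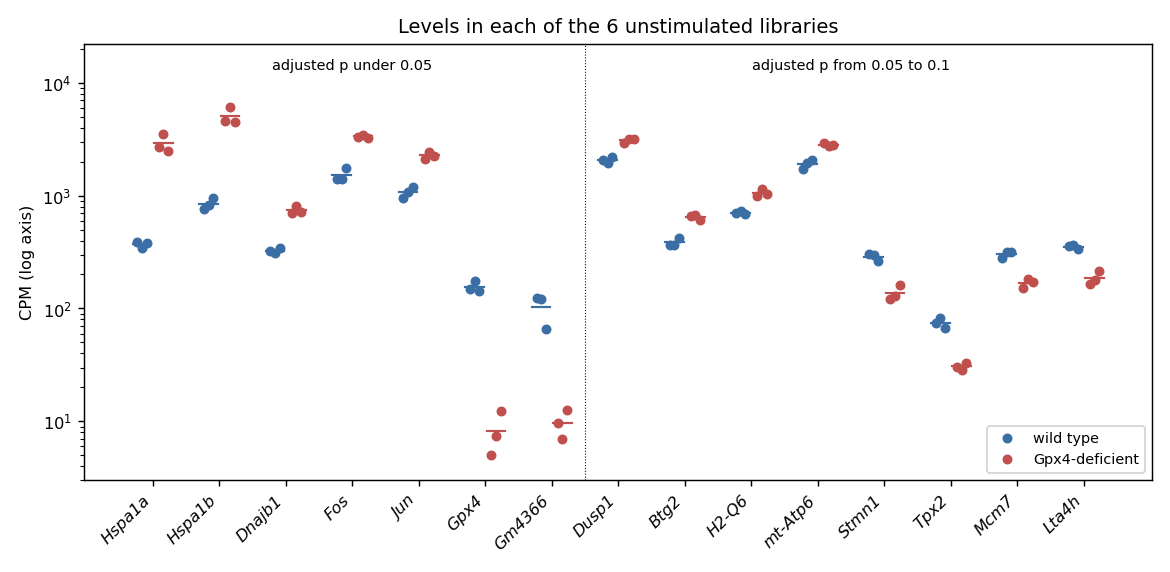
Levels (CPM on a log axis) in each of the 6 libraries of the 7 called genes, at the left, and of 8 genes with an adjusted p from 0.05 to 0.1, at the right, with points for the libraries and a line for each group's mean. Every Gpx4-deficient library lies above every wild-type library for Hspa1a, Hspa1b, Dnajb1, Fos and Jun, and below for Gpx4 and Gm4366.

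Both core AP-1 genes rose by about the same factor. Fos (chr12:85473890-85477273, plus strand) was at 1390, 1403 and 1749 CPM in wild-type and at 3305, 3454 and 3268 CPM in Gpx4-deficient libraries. The groups did not overlap, and the mean rose 2.21-fold, from 1514 ± 203.9 to 3342 ± 98.5 CPM (SD, n = 3), or 1.14 on the log2 scale (SE 0.10, adjusted p = 0.0101). Jun (chr4:95049034-95052222, minus strand), the partner of Fos in AP-1, was at 949.4, 1067 and 1188 CPM in wild-type and at 2113, 2453 and 2253 CPM in Gpx4-deficient cells. It rose 2.13-fold with no overlap, from 1068 ± 119.1 to 2273 ± 170.6 CPM, or 1.09 on the log2 scale (SE 0.10, adjusted p = 0.0137). Neither call held without wild-type library 1, wild-type library 2, Gpx4-deficient library 2 or Gpx4-deficient library 3, while the direction stayed in each. Both calls were also lost, with the same direction, with replicate number as a block in the fit.

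Among the 9 tested Fos and Jun family genes, Fos and Jun included, 7 had positive log2 fold changes with a median of 0.82. It was 7 with a median of 0.70 without Gpx4-deficient library 1, and 8 with 0.99 without library 2. Fosb was at 13.06, 20.3 and 25.18 CPM in wild-type and 76.81, 88.05 and 50.15 CPM in Gpx4-deficient libraries, with no overlap and a log2 fold change of 1.88 (adjusted p = 0.143). Junb, whose product can act against Jun, was at 2157, 1967 and 2429 against 3252, 3217 and 2569 CPM (0.46, adjusted p = 0.27). Batf, the AP-1 member that shapes effector T cell programmes, was at 96.91, 115.9 and 97.07 against 90.98, 71.31 and 78.41 CPM (-0.36), lower in every Gpx4-deficient library.

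Other immediate early genes gave the same pattern of signs at sizes that missed the threshold. Of 25 tested Egr, Nr4a, Ier and Klf genes, none was called by edgeR, 12 had an unadjusted p under 0.05, and 18 had positive log2 fold changes with a median of 0.41. Without Gpx4-deficient library 1 the median fell to 0.24 with 18 of 26 positive, and without library 2 it was 0.40 with 19 of 26. DESeq2 called 7 of them higher and limma-voom called 1. Klf6, a zinc finger factor induced by injury, was at 598, 520.5 and 730.1 CPM in wild-type and 1267, 1244 and 948.9 CPM in Gpx4-deficient cells (0.90, adjusted p = 0.143). Zfp36, which marks cytokine mRNAs for decay, was at 639.3, 676.5 and 758.1 against 1211, 1168 and 920.4 CPM (0.67, adjusted p = 0.154). Egr1, an early target of T cell receptor and stress kinases, was at 311, 280.9 and 298.8 against 583.5, 637.2 and 385.8 CPM (0.85, adjusted p = 0.214). For Klf6, Zfp36 and Egr1 the groups do not overlap, and Gpx4-deficient library 3 lay nearest to wild type. Receptors of the Nr4a group, whose transcription follows antigen receptor signals in T cells, lay on both sides of the wild type. Nr4a1 was at 415.9, 360.1 and 416.5 CPM against 451.6, 572.6 and 424.1 CPM (0.28, adjusted p = 0.523), and Nr4a3 at 33.24, 35.23 and 36.82 against 21.5, 20.56 and 26.47 CPM (-0.62, adjusted p = 0.414). Egr1 and Nr4a1 were chosen after their values were seen.

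Genes known to rise while tissue is dissociated leaned to positive values, with none called. A list of 68 other such genes, which leaves out the chaperone, Fos, Jun, Egr and Dusp families, had 44 positive and 24 negative log2 fold changes, a median of 0.18, 17 genes separated upward and 7 downward. Over all tested genes 8.87% were separated upward and 10.4% downward, and the downward count was near that share. Without Gpx4-deficient library 1 the positive count was 44 of 68, and without library 2 it was 45 of 69. None was called by edgeR, 19 had an unadjusted p under 0.05, and DESeq2 called 10 higher and 2 lower. Its summed level was 18841, 18578 and 19777 CPM in wild-type and 22943, 22563 and 22406 CPM in Gpx4-deficient libraries, with no overlap. Pnrc1, a nuclear receptor coactivator, was at 271.3, 286.5 and 274.6 against 465.2, 452.8 and 391.4 CPM (0.65, adjusted p = 0.112). Socs3, a feedback inhibitor of cytokine receptors, was at 115.6, 113.2 and 132.1 against 223.4, 214.1 and 172 CPM (0.76, adjusted p = 0.169). The part that cell handling plays in the chaperone and AP-1 result was not tested, and the labels record no handling time. Of 9 tested Dusp phosphatase genes, 5 had positive log2 fold changes with a median of 0.13, which was -0.01 with 4 positive without Gpx4-deficient library 1. The NF-kB list had 12 of 19 positive, a median of 0.16 (0.07 without Gpx4-deficient library 1) and 3 genes at an unadjusted p under 0.05. Nfkbia, the inhibitor that NF-kB induces against itself, was lower in every Gpx4-deficient library, at 1006, 1096 and 1027 against 927.4, 884.3 and 948.2 CPM (-0.18, adjusted p = 0.44).

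Gm4366 is annotated as a processed pseudogene (chr7:116824510-116825851, minus strand) and was the second gene that fell. It stood at 123.2, 121.9 and 66.23 CPM in wild-type and at 9.704, 6.932 and 12.66 CPM in Gpx4-deficient libraries. The groups did not overlap, and the mean was 10.6-fold lower, 103.8 ± 32.5 against 9.766 ± 2.87 CPM (SD, n = 3), which is -3.41 on the log2 scale (SE 0.34, adjusted p = 0.024). Of its 31-base words, 88.2% also occur in transcripts of Eef1g, which encodes a subunit of translation elongation factor 1, so reads of the 2 genes can be exchanged by the counting and the value of Gm4366 is uncertain. Eef1g was at 324.4, 339.6 and 375.2 CPM in wild-type and 464.7, 314.2 and 446.1 CPM in Gpx4-deficient cells (0.24, adjusted p = 0.672). The Gm4366 call was lost by limma-voom, with replicate number as a block in the fit, and without any 1 of wild-type library 1, wild-type library 2 or the 3 Gpx4-deficient libraries. In stimulated cells, a separate set of libraries, Gm4366 also fell, with a log2 fold change of -4.53 (adjusted p = 0.0189), a call that did not hold without any 1 of the stimulated wild-type libraries.

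Some further genes had an adjusted p between 0.05 and 0.1, and 8 of them, chosen after their values were seen, are described here. Among the higher ones, Dusp1, a phosphatase that switches off stress kinases, was at 2051, 1941 and 2188 CPM in wild-type and 2910, 3186 and 3186 CPM in Gpx4-deficient cells (0.59, adjusted p = 0.07). Btg2, an antiproliferative immediate early gene, was at 364.6, 364.6 and 423.6 against 656.2, 672.9 and 602.5 CPM (0.74, adjusted p = 0.0836). Both genes were higher in every Gpx4-deficient library than in any wild-type library. Also higher were mt-Atp6, a mitochondrially encoded subunit of ATP synthase, with a log2 fold change of 0.57, and the class I histocompatibility gene H2-Q6 with 0.58, for which 50.3% of the 31-base words occur in other genes. Of the 4 lower ones, Stmn1, which takes microtubules apart, was at 301.8, 294.7 and 263.4 against 121.5, 129.8 and 161.8 CPM (-1.06, adjusted p = 0.0836). Tpx2, a spindle assembly factor, was at 74.87, 81.62 and 66.86 against 30.42, 28.82 and 33.1 CPM (-1.27, adjusted p = 0.0989). Mcm7, a subunit of the replicative helicase, was at 282.8, 314.9 and 315.2 against 151.8, 182.2 and 172.2 CPM (-0.85, adjusted p = 0.0836). These 3 are genes of dividing cells, and none of their groups overlaps. The last, Lta4h, which makes leukotriene B4, had a log2 fold change of -0.92 (adjusted p = 0.0836).

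Cell cycle genes leaned downward as a body although none was called one by one. The promoters of 3 genes are printed because the mitotic list shares a sequence feature that its choice did not use. They belong to the mitotic genes of lowest p whose 250 bases before the start hold TTTGAA, the core of the element at which cell cycle genes are held silent outside G2 and mitosis, and were chosen after the values were known. They come from RefSeq (GRCm38.p6), on the gene's strand: chr9:70421555-70421804 (minus) for Ccnb2, chr8:57511593-57511842 (plus) for Hmgb2 and chr6:125191587-125191836 (minus) for Ncapd2. Capitals mark TTTGAA or its reverse complement TTCAAA. Ccnb2 holds a further match beginning at base 5 counted from the annotated start, outside the printed stretch. A match describes the letters and is not a measured binding site.
Ccnb2: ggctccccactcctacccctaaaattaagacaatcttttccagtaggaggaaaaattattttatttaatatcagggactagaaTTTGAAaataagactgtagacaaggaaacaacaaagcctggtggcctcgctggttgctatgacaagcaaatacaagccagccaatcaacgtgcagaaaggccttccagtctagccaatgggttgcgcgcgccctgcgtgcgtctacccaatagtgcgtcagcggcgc
Hmgb2: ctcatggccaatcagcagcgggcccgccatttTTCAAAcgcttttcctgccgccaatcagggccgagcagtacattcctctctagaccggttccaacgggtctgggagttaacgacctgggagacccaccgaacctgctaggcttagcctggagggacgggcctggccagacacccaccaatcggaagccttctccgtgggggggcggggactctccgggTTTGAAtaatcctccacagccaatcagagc
Ncapd2: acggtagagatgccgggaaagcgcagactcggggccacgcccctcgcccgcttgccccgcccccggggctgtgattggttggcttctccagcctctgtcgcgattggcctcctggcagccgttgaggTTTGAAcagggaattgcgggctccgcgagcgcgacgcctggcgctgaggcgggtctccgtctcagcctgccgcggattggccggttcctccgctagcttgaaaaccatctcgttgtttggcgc
Of 44 tested G2/M genes with a window, 34 hold TTTGAA on either strand, or 77.3%, against 14.8% of tested genes and 17.9% of all windows. For S phase genes the searched motif was GGCGGGAA, a form of the site of E2F factors, held by 6 of 32 genes with a window (18.8%) against 4.96% of tested genes.

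Of 51 tested mitosis and G2/M genes, 50 had negative log2 fold changes, with a median of -0.90. All 3 Gpx4-deficient libraries lay below all wild-type libraries for 37 of them, against 10.4% of all tested genes, and for none the other way round. edgeR called none, 31 had an unadjusted p under 0.05, DESeq2 called 21 lower, and limma-voom called 1 lower. Their summed level was 5156, 5185 and 4637 CPM in wild-type and 3353, 2902 and 3434 CPM in Gpx4-deficient libraries. The split of signs was again 1 to 50 without Gpx4-deficient library 1 and without library 2. Bub1b, the mitotic checkpoint kinase BubR1, was at 117.4, 110.8 and 110.9 CPM in wild-type and 59.04, 44.55 and 42.26 CPM in Gpx4-deficient cells (-1.22, adjusted p = 0.104). Ccnb2, a cyclin of mitotic entry, was at 78.72, 93.05 and 78.14 against 40.34, 39.37 and 40.08 CPM (-1.06, adjusted p = 0.112). Hmgb2, a chromatin protein of dividing cells, was at 529.5, 588.4 and 463.7 against 311.2, 270 and 339.3 CPM (-0.78, adjusted p = 0.118). For these 3 genes every Gpx4-deficient library lay below every wild-type library. Ncapd2, a condensin subunit, was at 142.3, 132.5 and 114.3 against 69.98, 69.4 and 83.52 CPM (-0.80, adjusted p = 0.173).

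Replication genes leaned the same way. Among 40 tested licensing and S phase genes, 39 lay below 0 with a median log2 fold change of -0.72. Of the 40, 23 were separated downward, against 10.4% of all tested genes, and none upward, against 8.87%. Without Gpx4-deficient library 1 all 40 were negative, and without library 2 it was 38. edgeR called none, 18 had an unadjusted p under 0.05, DESeq2 called 10 lower, and limma-voom called 1 lower. Mcm3, a helicase subunit like Mcm7, was at 261.9, 301.1 and 283.7 CPM in wild-type and 153.9, 162.9 and 177.7 CPM in Gpx4-deficient cells (-0.78, adjusted p = 0.101). Mcm5, a further subunit of the ring, was at 290, 287.6 and 330.2 against 153.4, 130.3 and 186.5 CPM (-0.95, adjusted p = 0.118). Restricting the test to genes at 5 CPM or more called 3 of the S phase genes and 4 of the G2/M genes lower. The replication-dependent histones gave no such picture: 17 of 44 were positive and 27 negative, and the median of -0.39 turned to 0.09 under 1 of the 14 alternatives and was -0.61 without Gpx4-deficient library 1. Their mRNAs lack poly(A) tails, and the libraries were made with an mRNA kit. Ribosome biogenesis and Myc target genes, which mark growth, had a median of -0.08 with 9 of 30 positive.

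**Figure D3:**
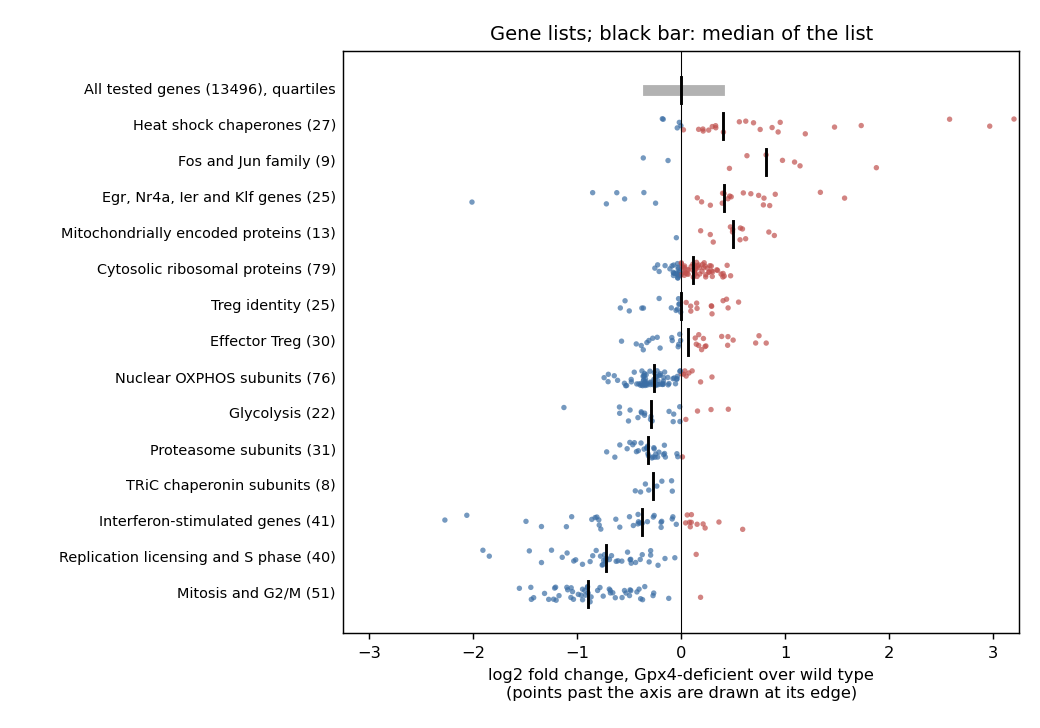
Log2 fold changes (Gpx4-deficient over wild type) of the tested members of the gene lists, 1 list per row with its number of tested genes, a black bar for its median, and points past the axis drawn at its edge; the grey bar spans the quartiles of all tested genes. The G2/M and S phase lists lie almost wholly below 0, with medians of -0.90 and -0.72, and the heat shock and the Fos and Jun lists lie mostly above, with medians of 0.41 and 0.82.

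Transcripts from the mitochondrial genome leaned to positive values and those of nuclear energy genes to negative ones, with none called by edgeR. Of 13 tested mitochondrially encoded protein genes, 12 had positive log2 fold changes with a median of 0.50, and 11 were separated upward, against 8.87% of all tested genes. The count of positive genes was 12 without Gpx4-deficient library 1 and 11 without library 2. edgeR called none, 11 had an unadjusted p under 0.05, DESeq2 called 11 higher and limma-voom called 1. mt-Co1, the catalytic subunit of cytochrome oxidase, was at 2870, 3185 and 3170 CPM in wild-type and 4666, 3926 and 4212 CPM in Gpx4-deficient libraries (0.47, adjusted p = 0.137). mt-Cytb, the cytochrome b of complex III, was at 2035, 1965 and 2052 against 3187, 2599 and 2748 CPM (0.50, adjusted p = 0.137). The share of counts on mitochondrially encoded genes was 1.21%, 1.35% and 1.38% in wild-type and 1.94%, 1.72% and 1.72% in Gpx4-deficient libraries. That share is also used as a sign of cell quality, and its part in the other results was not tested.

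Of 76 tested nuclear genes for oxidative phosphorylation subunits, 68 had negative log2 fold changes with a median of -0.26. Of the 76, 31 were separated downward and 1 upward, where all tested genes had 10.4% and 8.87%. The count of negative genes was 71 without Gpx4-deficient library 1 and 64 without library 2. edgeR called none, 17 had an unadjusted p under 0.05, and DESeq2 called 6 lower. Uqcrc1, a core subunit of complex III, was at 554.5, 630.3 and 558.3 CPM in wild-type and 300.6, 356.9 and 458.3 CPM in Gpx4-deficient cells (-0.64, adjusted p = 0.261). Sdhd, which anchors succinate dehydrogenase in the membrane, was at 161.5, 195 and 160.3 against 110.8, 85.95 and 121.2 CPM (-0.70, adjusted p = 0.255). So subunits of the same respiratory complex III, mt-Cytb and Uqcrc1, had log2 fold changes of opposite sign. Of 22 glycolysis genes, 18 had negative log2 fold changes with a median of -0.29. Pkm, which makes pyruvate and ATP in the last step of glycolysis, was at 1701, 1725 and 1688 against 1280, 1233 and 1320 CPM (-0.42, adjusted p = 0.11). limma-voom called 1 glycolysis gene lower, and DESeq2 called 5 lower and 1 higher.

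Of other machinery for protein quality, the proteasome, TRiC and endoplasmic reticulum lists leaned to the other side from the inducible chaperones. The mitochondrial chaperones did not. Of 31 proteasome subunits, which degrade ubiquitin-tagged proteins, 30 had negative log2 fold changes with a median of -0.32. Of the 31, 13 were separated downward, against 10.4% of all tested genes. Without Gpx4-deficient library 1 the count of negative genes was 30, and without library 2 it was 31. edgeR called none of them, 8 had an unadjusted p under 0.05, and DESeq2 called 2 lower. Psma5, of the proteasome's outer ring, was at 137.8, 111.3 and 106.2 CPM in wild-type and 63.89, 60.91 and 91.38 CPM in Gpx4-deficient cells (-0.72, adjusted p = 0.304). All 8 subunits of TRiC, the chaperonin that folds actin and tubulin, were negative with a median of -0.27. Chaperones of the endoplasmic reticulum had 14 of 21 negative and a median of -0.22, and those of the mitochondrion had 6 of 10 positive and a median of 0.03, which changed sign in 1 of 14 alternatives. Cytosolic ribosomal protein genes had 56 of 79 positive, a median of 0.11 and none separated downward. These values rest on single libraries: without Gpx4-deficient library 1 the ribosomal count was 42 of 79 with a median of 0.02, and without library 2 it was 73 of 79 with 0.17. Without Gpx4-deficient library 1 the endoplasmic reticulum median was -0.14, and 7 of 8 TRiC genes were negative. For the proteasome, TRiC and endoplasmic reticulum lists, Gpx4-deficient library 3 lay closest to wild type in summed level, at 4887, 2853 and 5575 CPM against wild-type sums of at least 5347, 2905 and 5609 CPM.

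**Figure D4:**
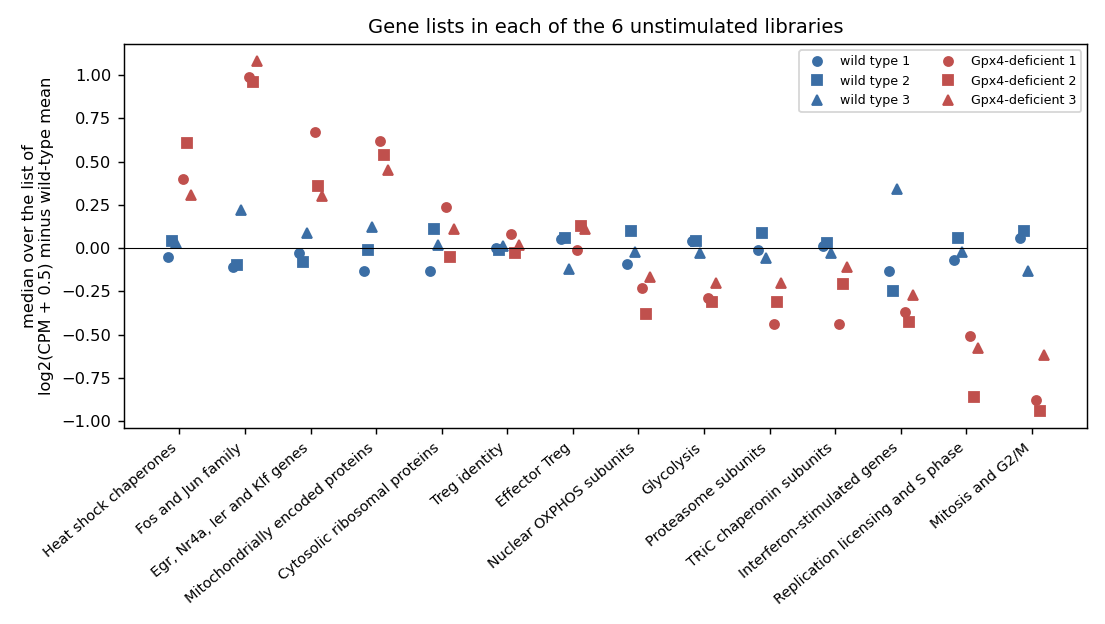
Median level of each list's tested genes in each of the 6 libraries, as the log2 of CPM plus 0.5 minus each gene's wild-type mean. The 3 Gpx4-deficient libraries lie above the wild-type ones for heat shock (0.40, 0.61 and 0.31) and below for G2/M (-0.88, -0.94 and -0.62), while Treg identity genes stay between -0.03 and 0.08.

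Lists of genes that act around Gpx4 had medians on both sides of 0, and edgeR called none of their members. Among 17 selenoproteins other than Gpx4, 12 had negative log2 fold changes with a median of -0.27, 1 had an unadjusted p under 0.05, and neither edgeR nor DESeq2 nor limma-voom called any. Of 19 peroxiredoxins, thioredoxins and superoxide dismutases, 16 were negative, with a median of -0.23 and 1 at an unadjusted p under 0.05. Genes of cystine import and glutathione metabolism had 8 of 18 positive and a median of -0.03. NRF2 targets, the antioxidant programme, had 10 of 20 positive and none at an unadjusted p under 0.05. Hmox1, a haem-degrading NRF2 target often raised in ferroptosis, was at 17.07, 26.96 and 22.79 CPM in wild-type and 22.42, 34.93 and 23.07 CPM in Gpx4-deficient libraries (0.27), with overlapping groups. Gclc, the rate-limiting enzyme of glutathione synthesis, was at 12.44, 14.02 and 15.06 against 37.29, 12.27 and 15.52 CPM, high in Gpx4-deficient library 1 only. Slc7a11, which imports cystine for glutathione, had too few counts to test, at 0.1062 CPM or less in every library. Without Gpx4-deficient library 2 the selenoprotein median was -0.15, and that of the cystine and glutathione list was -0.09 without library 1 and 0.04 without library 2. Hmox1 and Gclc were named for their role after their values were seen.

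Iron genes had 12 of 20 positive log2 fold changes and a median of 0.10, with 2 at an unadjusted p under 0.05. Tfrc, the transferrin receptor that takes up iron, was at 38.76, 38.91 and 44.31 CPM in wild-type and 11.79, 24.3 and 32.46 CPM in Gpx4-deficient cells (-0.83, adjusted p = 0.496). All Gpx4-deficient values were below the wild-type ones, but they differed among themselves by more than those of the wild type. Fth1, the ferritin heavy chain that stores iron, was at 1221, 1338 and 1211 against 1404, 1300 and 1145 CPM (0.03, adjusted p = 0.954), with overlap. Of 23 genes of membrane lipid remodelling and other ferroptosis suppressors, 11 were positive and 12 negative. Acsl4, which loads membranes with oxidisable fatty acids, ranged from 14.77 to 61.46 CPM in wild-type and from 26.87 to 48.98 CPM in Gpx4-deficient libraries. Dhodh, an enzyme of pyrimidine synthesis that can also limit lipid peroxidation in mitochondria, was at 42.33, 42.93 and 53.75 against 15.26, 29.75 and 39.55 CPM (-0.72, adjusted p = 0.542). Without Gpx4-deficient library 2 the iron median was 0.03, and without library 1 the membrane lipid list had 14 of 25 positive. Fth1 and Acsl4 were named for their role after their values were seen. Cholesterol synthesis and uptake genes had 17 of 24 negative, a median of -0.13 (-0.27 without Gpx4-deficient library 1) and 3 at an unadjusted p under 0.05. For these lists of lipid peroxide defence, iron and lipids, neither DESeq2 nor limma-voom called a gene.

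Other stress programmes gave mixed signs. Of 19 genes of the ATF4 and CHOP response to amino acid shortage or unfolded protein, 13 were positive with a median of 0.21, 3 separated upward and 4 downward, and edgeR called none while DESeq2 called 1 in each direction. Over all tested genes 8.87% were separated upward and 10.4% downward. Ppp1r15a, which restores translation after stress, was at 1663, 1424 and 1754 CPM in wild-type and 2009, 2370 and 2217 CPM in Gpx4-deficient cells (0.45, adjusted p = 0.234). Phgdh, the first enzyme of serine synthesis and an ATF4 target, was at 404.4, 398.2 and 389.6 against 227.6, 185 and 307.7 CPM (-0.73, adjusted p = 0.263). These members of 1 list lay on opposite sides of wild type with no overlap in either. The ATF4 and CHOP median was 0.08 without Gpx4-deficient library 1 and 0.11 without library 2. The p53 targets had 12 of 19 positive and a median of 0.11 (0.01 without Gpx4-deficient library 2), with 1 gene called higher by DESeq2 and by limma-voom. The BCL2 family of death regulators had 11 of 16 negative and a median of -0.13.

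None of the T cell effector, receptor and homing genes was called, and their lists had medians near 0. The effector Treg list had 15 of 30 genes on each side of 0. Of the 30, 7 were separated upward and 3 downward, where all tested genes had 8.87% and 10.4%. Prdm1, which encodes Blimp-1 and marks effector Treg cells, was at 35.41, 40.72 and 35.11 CPM in wild-type and 74.44, 72.59 and 49.01 CPM in Gpx4-deficient cells (0.82, adjusted p = 0.292). Nrp1, a surface receptor that helps keep Treg cells stable, was at 473.2, 496.2 and 443.3 against 670.9, 643.9 and 596.4 CPM (0.44, adjusted p = 0.185). Both were higher in all 3 Gpx4-deficient libraries. Among receptors of the TNF and CD28 families, with 12 of 19 negative, Tnfrsf4 (OX40, a costimulatory receptor) was at 661.5, 624.8 and 657.6 against 357.2, 422.4 and 516 CPM (-0.59, adjusted p = 0.245). Tnfrsf18 (GITR, its relative) was at 536.8, 575 and 539.7 against 283.9, 370.4 and 481.6 CPM (-0.54, adjusted p = 0.364). In both receptor genes Gpx4-deficient library 1 was lowest and library 3 lay next to the wild type. Genes of the T cell receptor complex had 18 of 25 positive with a median of 0.10, 6 separated upward and 4 downward. Naive and central genes had 10 of 17 positive with a median of 0.09, 3 separated upward and 2 downward. The IL-2 and SOCS list had 13 of 22 positive and a median of 0.04. In it 6 were separated upward, against 8.87% of all tested genes, and none downward, against 10.4%. Chemokine receptors and integrins had 13 of 29 positive and a median of -0.02. Without Gpx4-deficient library 1 the effector Treg list had 19 of 30 positive and the naive and central list 8 of 17. In these lists edgeR called none, at 3 to 5 genes per list with an unadjusted p under 0.05, and DESeq2 called at most 4 in any.

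Among inflammation genes, Casp1, the protease that cuts pro-IL-1β and gasdermin D, was at 19.4, 30.38 and 25.02 CPM in wild-type and 71.79, 76.48 and 52.29 CPM in Gpx4-deficient libraries (1.42, adjusted p = 0.152). The groups did not overlap. Its list of IL-1 and IL-18 family and inflammasome genes had 12 of 16 positive and a median of 0.25, and DESeq2 called 1 higher. Il1b itself was at 1.088, 1.353 and 1.036 against 0, 0 and 4.996 CPM, which rests on Gpx4-deficient library 3; it was chosen after its values were seen. Runx3, a lineage factor of cytotoxic and Th1 cells, was at 24.57, 43.35 and 20.12 against 117, 86.92 and 49.35 CPM (1.52, adjusted p = 0.272), and its list of lineage transcription factors had 12 of 21 positive with a median of 0.18. Cytokine genes had 14 of 18 positive and a median of 0.45, which was 0.25 without Gpx4-deficient library 1. Interferon-stimulated genes had 30 of 41 negative with a median of -0.37, 10 separated downward and none upward. Over all tested genes 10.4% were separated downward and 8.87% upward. Ifi27l2a, a small interferon-induced gene, was at 279.3, 287.6 and 376.2 against 176.4, 155.1 and 199.9 CPM (-0.83, adjusted p = 0.169). Wild-type library 3 was highest in that list, with a sum of 6116 CPM against 4561 to 4612 CPM in the other two wild-type libraries and 3916 to 4483 CPM in Gpx4-deficient ones. Anxa2, a membrane-binding annexin of activated cells, was at 227.4, 240 and 192.9 against 118, 84.97 and 120.4 CPM (-1.03, adjusted p = 0.131), in a list with 14 of 18 negative and a median of -0.30 (-0.20 without Gpx4-deficient library 2). Clock genes had 11 of 17 positive, 4 separated upward and a median of 0.26 (0.18 without Gpx4-deficient library 1), and the lowest p among them was that of Ciart, a repressor in the clock, at 14.34, 16.47 and 19.25 against 36.94, 48.64 and 31.35 CPM (1.22, adjusted p = 0.234). MHC class I and peptide loading genes had 17 of 25 negative and a median of -0.20 (-0.10 without Gpx4-deficient library 2). In the lists of this paragraph edgeR called none, at 3 to 10 genes per list with an unadjusted p under 0.05, and DESeq2 called at most 3 in any.

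Markers of other cell types were present at levels that ranged widely, and edgeR called none. Of 11 tested neutrophil markers, 8 had negative log2 fold changes with a median of -3.41, and edgeR, DESeq2 and limma-voom called none. Of the 11 markers, 7 were separated downward, against 10.4% of all tested genes. Several of the markers are near 0 in the Gpx4-deficient libraries and passed the filter on low counts only through the wild type. Elane, an elastase made by neutrophil precursors, was at 2.954, 7.03 and 5.778 CPM in wild-type and 0.03541, 0 and 0 CPM in Gpx4-deficient libraries. Mpo, the granule peroxidase, was at 14.89, 72.29 and 46.26 against 0.1062, 6.659 and 1.716 CPM. The list summed to 55.05, 188 and 112.7 CPM in wild-type and to 63.36, 15.58 and 25.21 CPM in Gpx4-deficient cells, where 51.28 CPM of the sum of library 1 came from Mmp9 alone and that library's sum lay above the lowest wild-type sum. The defining markers Ly6g and Cxcr2 were at 0 in all 6 libraries. B cell markers, which include the antigen presentation gene Cd74 at 324.1 to 472.3 CPM over all 6 libraries, had 11 of 14 negative, with sums of 557.4 to 775.4 CPM in wild-type and 611.7 to 707.6 CPM in Gpx4-deficient cells. The CD8 and NK markers summed to 140.2 to 167.7 CPM against 78.43 to 144.2 CPM, with 8 of 11 negative. Dendritic cell markers summed to 86.22 to 125 CPM against 55.07 to 84.06 CPM, monocyte and macrophage markers to 533.7 to 718.6 CPM against 509 to 672.7 CPM, and conventional CD4 T cell genes to 984.6 to 1164 CPM against 1188 to 1384 CPM. The erythroid and platelet markers were negative in 6 of 6 cases, plasma cell markers positive in 4 of 6 and stromal markers positive in 2 of 3. Of 4 sex-linked genes 2 were positive. The part of these cells in the genotype difference of any other gene was not tested.

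No gene near Gpx4 was called with it. Within 1 Mb of Gpx4, 65 other genes were tested, none was called, and the median was -0.11. Over all tested genes only 0.0519% were called, so finding none among 65 cannot show whether neighbours of Gpx4 differ. Of the 65 genes, 5 were separated upward and 8 downward, against 8.87% and 10.4% of all tested genes. The nearest, Sbno2, lies 553 bases away. Of the 7 called genes, only Hspa1a and Hspa1b lay within 1 Mb of another called gene, and the same pair was found with windows of 0.5 and 2 Mb. All other called genes lie on chromosomes of their own.

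The genotype effect on Fos differed between unstimulated and stimulated cells, and that on the Hsp70 pair could not be shown to. Other AP-1 genes gave less stable results. Counts of stimulated libraries were scaled within their own set, so their levels are given beside those above without comparison. Fos was at 127.3, 135.4 and 115.8 CPM in stimulated wild-type and 80.56, 74.69 and 54.59 CPM in stimulated Gpx4-deficient libraries, on the opposite side of the wild type from the unstimulated cells, with a log2 fold change of -0.85 (adjusted p = 0.18). The difference of the 2 genotype effects, unstimulated minus stimulated in one fit of all 12 libraries, was 2.01 for Fos (SE 0.19, adjusted p = 0.00206). It was 1.24 for Jun (adjusted p = 0.0492) and 1.19 for Dnajb1 (adjusted p = 0.0379). For Junb it was 1.26 (adjusted p = 0.028), and for Fosb 1.94 (SE 0.58, adjusted p = 0.358). In stimulated cells Jun overlapped between genotypes, at 264.2, 245.8 and 255.8 against 257.2, 271.6 and 166.9 CPM, as did Dnajb1, at 112.5, 100.1 and 87.46 against 86.31, 117.6 and 100.5 CPM. The Fos difference held without any 1 of the 12 libraries, whereas those of Jun and Dnajb1 held in 3 of these 12 fits each and that of Junb in 4. For Hspa1a the difference was 1.51 (adjusted p = 0.237) and for Hspa1b 0.67 (adjusted p = 0.757), with log2 fold changes in stimulated cells of 1.47 (adjusted p = 0.194) and 1.93 (adjusted p = 0.165). Hspa8 rose in stimulated cells, with a log2 fold change of 0.92 (adjusted p = 0.0229), beside the 0.93 it had without stimulation. Gpx4 itself had -3.60 in stimulated cells (adjusted p = 0.0648). Of 12472 genes tested in stimulated cells 22 were called (0.176%), and of 14827 in the interaction 30 (0.202%). The calls in stimulated cells, those of Hspa8 and Gm4366 included, numbered 0 without any 1 of the stimulated wild-type libraries or without stimulated Gpx4-deficient library 2, at 1002 to 2075 genes with an unadjusted p under 0.05.

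**Figure D5:**
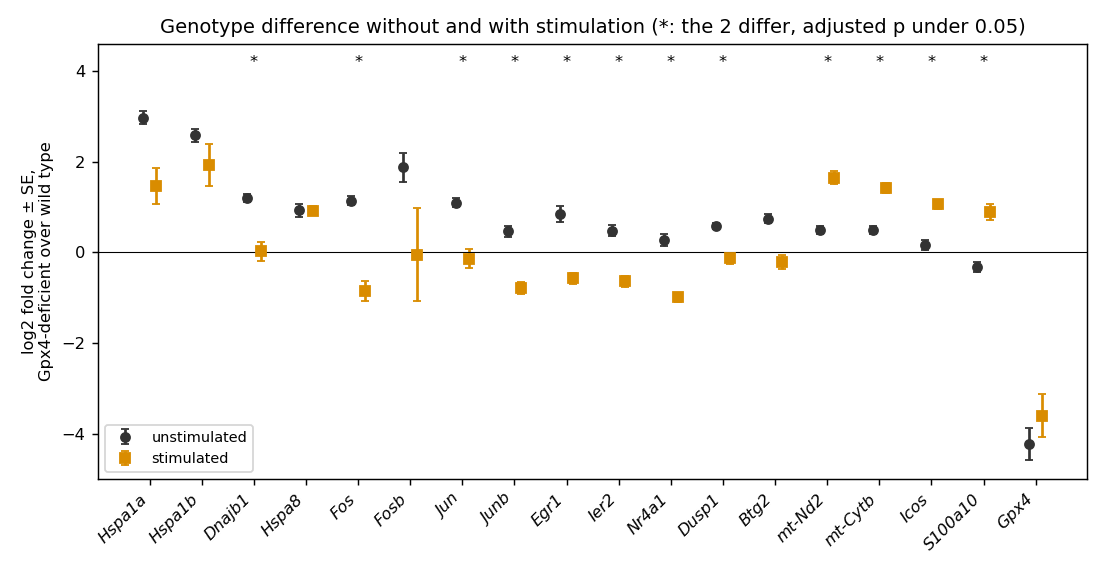
Log2 fold change, Gpx4-deficient over wild type, of named genes in unstimulated and in stimulated cells, with bars of 1 standard error and a star where the 2 differ at an adjusted p under 0.05. Fos lies at 1.14 without stimulation and at -0.85 with it, while Hspa1a, Hspa1b and Hspa8 lie above 0 in both.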

How the data were processed

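The authors deposited 1 table of expected counts per gene, made from reads of all libraries on build GRCm38 (per the submitters' processing notes). Which aligner was used is not given in the sources used here. A stranded mRNA kit was used on 600 ng of RNA per library, per the labels' protocols. Before any test the expected counts were rounded, and every column was matched to a sample by its label, with 0 left over.

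The 6 unstimulated libraries were fitted by group, leaving 4 residual degrees of freedom (edgeR 4.0.16 in R 4.3.3, TMM scaling, filterByExpr, robust quasi-likelihood F test). The threshold for a call was 0.05 on p adjusted by Benjamini-Hochberg, at any fold. The SE derives from the F statistic, and levels are TMM-scaled CPM. The interaction was fitted on all 12 libraries. Alternatives used DESeq2 1.42.0, limma 3.58.1 (voom), other scalings and filters, and left out each library. The test was also tried on simulated data with known fold changes.

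The members and the 53 gene lists were chosen with earlier results of these data known. Of 1323 list entries, 1306 matched the table by symbol, 1 by synonym and 16 not; histone genes were respelled to the table's symbols. The text names Gpx4, Foxp3, every called gene, up to 4 members of a list in order of unadjusted p (not all are described, and some are not reported here), genes near Gpx4 and called interaction genes; other names are marked. Coordinates and shared 31-base words come from the GENCODE annotation of GRCm38, promoters from RefSeq.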

Additional observations from a re-analysis of the deposited data

Results flagged for a closer look

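The genotype effect was compared between unstimulated and stimulated cells, as the log2 fold change without stimulation minus that with it (edgeR, all 12 libraries). Of the genes named by rule or for their role, 16 differed at an adjusted p under 0.05. That count carries no weight, because the genes of smallest interaction p in each direction were named for that p. Over all 14827 genes tested for the interaction, 30 were called (0.202%).

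Several immediate early genes and 1 chaperone gene, Dnajb1, had a genotype effect more positive without stimulation: Fos by 2.01 (adjusted p = 0.00206), Egr1 by 1.43 (0.0359), Nr4a1 by 1.28 (0.0204), Junb by 1.26 (0.028), Jun by 1.24 (0.0492), Dnajb1 by 1.19 (0.0379), Ier2 by 1.13 (0.0294) and Dusp1 by 0.73 (0.0298). In stimulated cells Nr4a1 was at 3023, 3202 and 3189 CPM in wild-type and 1809, 1489 and 1429 CPM in Gpx4-deficient libraries, and Ier2 at 513.7, 473.6 and 491.7 against 295.5, 308.4 and 345.5 CPM. Egr1, Ier2 and Nr4a1 were named after their values were seen. The Fos difference was called without each of the 12 libraries in turn, and the others in 3 or 4 of the 12 fits.

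A second set was close to 0 in stimulated Gpx4-deficient cells. Cd72 differed by 7.11 (adjusted p = 0.00575), Cenpj by 6.40 (0.015), Capn3 by 5.51 (0.00206) and Tbxa2r by 5.06 (0.015). Cenpj, a centriole assembly gene, was at 15.65, 11.81 and 18.4 CPM in stimulated wild-type and 0.07139, 0.1881 and 0.2211 CPM in stimulated Gpx4-deficient libraries, with an unstimulated log2 fold change of -0.15. Of the 26 genes called more positive without stimulation, 16 lay under 1 CPM in all stimulated Gpx4-deficient and over 1 CPM in all stimulated wild-type libraries.

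In the other direction, S100a10 differed by -1.20 (adjusted p = 0.0405), mt-Nd2 by -1.15 (0.0294), mt-Cytb by -0.92 (0.0361) and Icos by -0.89 (0.0439). The mitochondrial transcript mt-Cytb had genotype effects of 0.50 without and 1.42 with stimulation.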

How the results depend on the processing

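Hspa1a and Hspa1b were called under all 14 alternatives, and all 7 called genes kept their direction in each. The number of genes called without stimulation, 7 in edgeR, was 2 with the replicate block, 18 with limma-voom, 395 with DESeq2, 16 with no filter on low counts and 30 with 5 CPM required in 3 libraries, and ran from 2 to 7 when leaving out each library; the cause was not tested, apart from the fewer genes or samples that the filter and the left-out library bring. Over all tested genes, same-numbered libraries of the genotypes did not deviate together (r = 0.007, -0.009 and -0.008). Those of different number gave r from -0.007 to 0.015. With 3 libraries a group and the noise of low genes included, this check cannot exclude a pairing by replicate number. The interaction, 30 genes, had 5 with the replicate block and 380 with DESeq2, and 2 to 167 when leaving out each library. Stimulated cells, 22 genes, had 337 in the fit of all 12 libraries, 704 with DESeq2, 0 with the replicate block (edgeR, 1247 at an unadjusted p under 0.05), and 0 to 24 when leaving out each library.

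Of the named genes, 10 values changed sign, all far from the threshold. Leaving out each library, the log2 fold change ran from -0.386 to 0.138 for Cenpj (reversed at 0.138 and 0.089), from -0.206 to 0.152 for Ddx3y (0.152 and 0.089), from -0.271 to 1.103 for Derl3, from -4.016 to 2.703 for Fkbp11, from -0.035 to 0.263 for Sbno2 and from -0.026 to 0.394 for Uty. Fkbp11 also turned to -0.102 with the replicate block and -0.258 with limma-voom. Of the other gene values, 2835 kept side and direction, 104 crossed to called and 24 lost a call. List medians moved by less than the spread in 664 cases and by more in 50. Depth limited low genes: among 3193 genes under 2 log2 CPM the median SE was 1.52, and it was 0.11 among 708 genes over 8 log2 CPM.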

Other observations

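Several noncoding annotation classes had higher median log2 fold changes than protein-coding genes, a difference that was not tested. Of 465 tested loci of the annotation class TEC, which are transcribed regions awaiting experimental proof, 338 had positive log2 fold changes, or 72.7%, with a median of 0.71. The median was 0.36 for 323 antisense genes, 0.52 for 61 sense intronic genes and 0.29 for 221 lincRNAs, against -0.02 for 11216 protein-coding genes and -0.01 for 533 pseudogenes. It was 0.29 for 176 processed transcripts, but 0.02 for 38 lncRNAs at bidirectional promoters, with 19 on each side of 0. By level, the median over all tested genes was 0.089 at 2 log2 CPM or less and -0.011 over 8 log2 CPM. None of the TEC, antisense, sense intronic and lincRNA genes was called by edgeR, at 24, 14, 2 and 11 genes with an unadjusted p under 0.05.

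T cell receptor V segments were described as groups, by summed levels and medians that do not resolve which clones were sorted. Of 94 tested alpha V segments, 66 had positive log2 fold changes with a median of 0.28, and their summed level was 223.6, 217.6 and 225.5 CPM in wild-type and 310.3, 254.3 and 227.3 CPM in Gpx4-deficient libraries. The 22 beta V segments had a median of 0.08, and no segment of either kind had an unadjusted p under 0.05. Of 41 immunoglobulin segments, 25 were positive with a median of 0.53 and 4 at an unadjusted p under 0.05, none of them called.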
